A study of Mus musculus with 8 samples.

Results

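The 8 genes described here were the colony-stimulating factor receptors and myeloid growth factors of the mouse liver: the ligands Csf1, Il34 and Flt3l and the receptor genes Csf1r, Flt3, Csf2ra, Csf2rb and Csf3r. They were chosen by symbol, and each of the 8 symbols named 1 of the 55450 gene rows of the table. The livers came from 8 wild-type C57BL/6 mice profiled by droplet single-cell RNA sequencing after perfusion, enzymatic dissociation, red cell lysis and removal of dead cells. The control mice (n = 2) received a normal diet and drinking water. The HFD+F+CCl4 mice (n = 3) received a high-fat diet and a fructose solution, and the WD+F+CCl4 mice (n = 3) a western diet and the same fructose solution. Both model groups were also injected with carbon tetrachloride (CCl4), a hepatotoxin, into the peritoneum every week. Diet, fructose and CCl4 were given together in both models of nonalcoholic steatohepatitis (NASH), so their contributions cannot be told apart. No control mouse received CCl4 alone, and the sources used here give no age or sex.

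Colony-stimulating factors are secreted proteins that keep myeloid cells alive and drive their growth and differentiation. CSF1 (M-CSF) and IL-34 both bind the receptor tyrosine kinase CSF1R, on which monocytes, macrophages and Kupffer cells, the resident macrophages of the liver, depend. FLT3L binds the related kinase FLT3, which sustains dendritic cell development. CSF2RA and CSF2RB are the ligand-binding chain and the shared signalling chain of the GM-CSF receptor, and CSF2RB also serves the IL-3 and IL-5 receptors. CSF3R is the G-CSF receptor, which supports neutrophil production and release.

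In the GRCm38 genome with the GENCODE vM21 annotation, the ligand genes lie at chr3:107741048-107760469 (Csf1, minus strand), chr8:110741829-110805924 (Il34, minus strand) and chr7:45129788-45136432 (Flt3l, minus strand). The receptor genes lie at chr5:147330741-147400489 (Flt3, minus strand), chr19:61223957-61228429 (Csf2ra, minus strand), chr15:78325752-78353847 (Csf2rb, plus strand) and chr4:126024550-126044440 (Csf3r, plus strand), with Csf1r given further on. Exons of Flt3l share bases on the same strand with Gm45713, and exons of Csf2rb with the microRNA gene Mir7676-2, so reads in those bases are uncertain. Csf2rb has a close copy, Csf2rb2. They share 6.96% of the 100-base words of the whole Csf2rb transcript and 0 of the 501 words in its last 600 bases, where a 3′ assay reads.

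The RefSeq promoter windows of GRCm38.p6, from 250 bases before to 50 bases after the start site, held 5 of the 8 genes. The windows of 3 receptor genes with contrasting cell patterns are shown: Csf2ra, highest in neutrophils and monocytes, Csf3r, highest in neutrophils, and Flt3, highest in dendritic cells. Capitals mark matches on either strand to GAGGAA, a core of sites of the myeloid factor PU.1.
Csf2ra (GRCm38.p6, chr19:61228369-61228668, minus strand): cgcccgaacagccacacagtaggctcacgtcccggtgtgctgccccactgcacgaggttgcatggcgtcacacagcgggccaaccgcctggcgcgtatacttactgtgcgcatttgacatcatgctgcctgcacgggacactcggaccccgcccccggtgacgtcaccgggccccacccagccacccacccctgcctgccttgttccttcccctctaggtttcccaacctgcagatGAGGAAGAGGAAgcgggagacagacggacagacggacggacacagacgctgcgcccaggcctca
Csf3r (GRCm38.p6, chr4:126024409-126024708, plus strand): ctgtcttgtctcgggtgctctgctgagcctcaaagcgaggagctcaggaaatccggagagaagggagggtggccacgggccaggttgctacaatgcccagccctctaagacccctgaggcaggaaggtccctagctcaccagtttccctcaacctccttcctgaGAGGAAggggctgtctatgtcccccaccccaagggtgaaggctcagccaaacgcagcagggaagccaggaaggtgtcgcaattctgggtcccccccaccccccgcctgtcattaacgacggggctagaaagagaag
Flt3 (GRCm38.p6, chr5:147400440-147400739, minus strand): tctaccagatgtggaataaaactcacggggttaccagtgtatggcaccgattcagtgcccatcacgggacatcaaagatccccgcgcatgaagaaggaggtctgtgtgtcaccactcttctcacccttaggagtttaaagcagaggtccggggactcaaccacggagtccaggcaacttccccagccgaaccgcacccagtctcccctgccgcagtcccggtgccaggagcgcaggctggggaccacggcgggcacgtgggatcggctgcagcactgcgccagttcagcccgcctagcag
The Csf2ra window held 2 adjacent matches, the Csf3r window 1, and the windows of Flt3, Csf1 and Flt3l none. Of 32851 promoter windows of this length, 28.3% held GAGGAA. TTNNGNAA, a core of C/EBP sites, occurred in 40.7% of all windows and once in the Csf2ra window, where it did not overlap GAGGAA, and in none of the other windows of the genes held.

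A barcode was kept when it had more than 500 genes and less than 25% of its unique molecular identifiers (UMIs) from mitochondrial genes, which left 80474 of 88581 barcodes as cells. The cells were clustered without the 8 genes, and 72438 cells took 1 of 19 marker-based names, each of which stands for an X-like class. The other 8036 cells stayed unnamed. Control replicate 2 was the shallowest library, with 6135827 UMIs, and the deepest had 64855024, while kept cells ranged from 4168 to 11999. Control replicate 2 stood apart: 2024 of its 4168 cells fell into a large unnamed cluster led by hepatocyte genes. A share of 0.395 of the cells of that cluster had a UMI of the T cell gene Trbc2 and 0.276 one of the B cell gene Cd79a. Unnamed cluster 19 held a further 782 cells of control replicate 2 and 303 of control replicate 1. Unnamed cluster 15, also led by hepatocyte genes, held 1507 cells of control replicate 1. Clusters 15 and 19 took no name because T and B cell genes occurred in the same cells. The control values of named classes thus rest on a part of the control cells. HFD+F+CCl4 replicate 1 also stood apart, since it held 2862 of the 3879 cells of a patrolling monocyte cluster and 2607 of the 2942 cells of a macrophage cluster, both led by heat-shock or immediate-early genes. Of the kept cells, 1467 (1.82%) carried a barcode sequence that also occurred in another library. Levels are given in CPM, the UMIs of a gene scaled to all UMIs of the cells of 1 class in 1 mouse with at least 20 such cells, and as the mean over mice ± SD.

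Csf1 was highest in neutrophils and hepatic stellate cells, the collagen-producing pericytes of the liver. In neutrophils its level was 270 CPM in control replicate 1, 285, 373 and 380 CPM in the HFD+F+CCl4 mice and 428, 223 and 359 CPM in the WD+F+CCl4 mice (331 ± 72.8, n = 7). The single control value lay inside the range of the models, and control replicate 2 had only 12 neutrophils. The stellate cells of the 2 mice with at least 20 such cells, both HFD+F+CCl4, had 263 and 268 CPM (266 ± 3.75). The SD ranges of neutrophils and stellate cells overlapped, and that of stellate cells did not reach the next class, endothelial cells (67.4 ± 41.4, n = 7). Cholangiocytes, the bile duct cells, followed at 41.9 ± 27.0 CPM (n = 7). Monocytes and macrophages held little Csf1. In macrophages it was 2.86 to 19.0 CPM in the 6 model mice, and the 27.9 and 133 CPM of the controls rested on 9 and 5 UMIs.

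At least 1 Csf1 UMI was present in 29.98% of the 5196 neutrophils, whose median depth was 1360 UMIs, against 0.764% of the 4972 B cells, with a median of 1747.5 UMIs. After thinning each cell to 1000 UMIs the shares were 24.4% and 0.331%. The share was 59.9% in stellate cells and 23.4% in endothelial cells, which fell to 16.2% and 8.03% on thinning. Of the neutrophils with a Csf3r UMI, 29.8% also had a Csf1 UMI, close to the share among all neutrophils, of which 88.9% had a Csf3r UMI. The 2 neutrophil clusters differed. The larger had 450 CPM of Csf1 and 2363 CPM of Csf3r over all mice, and the smaller, of 221 cells, 19.3 and 179 CPM. Averaged over mice, neutrophils were 5.89% of kept cells and supplied 31.5% ± 18.7 (SD, n = 8) of all Csf1 UMIs. The share was 4.90% and 15.9% in the controls, 16.8% to 44.3% in HFD+F+CCl4 and 24.4% to 59.7% in WD+F+CCl4, beside fewer neutrophils in the controls. In control replicate 2, 48.0% of the Csf1 UMIs came from its large unnamed cluster.

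**Figure D1:**
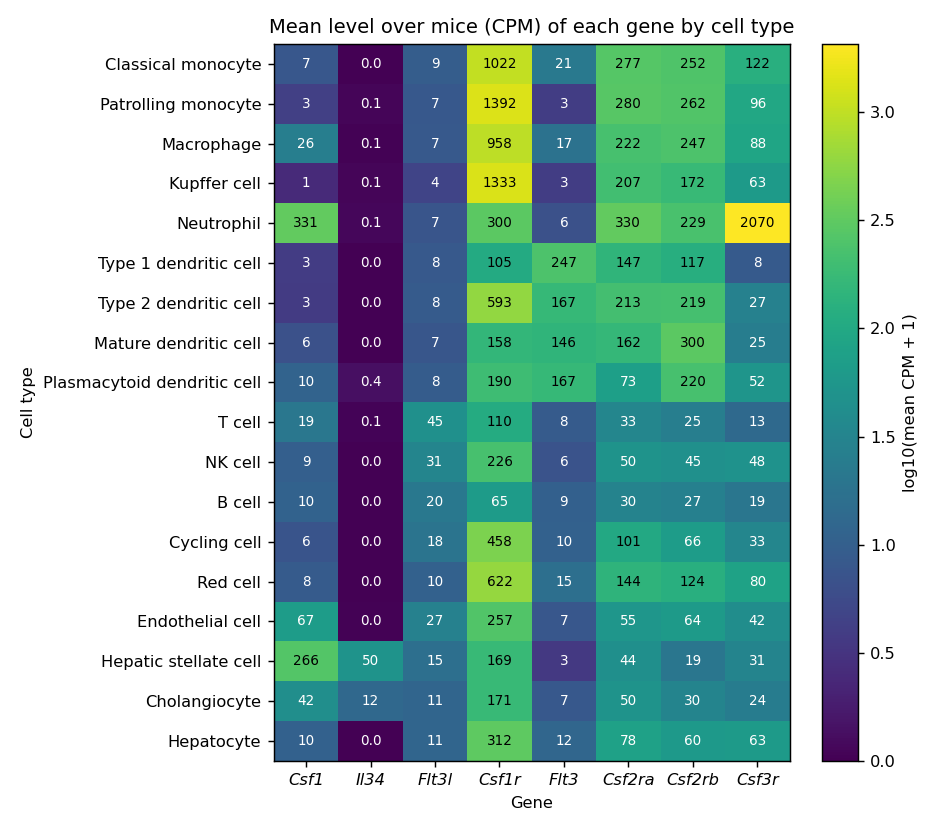
Mean level of each of the 8 genes (columns) in each marker-named class (rows, plasma cells not shown), in CPM per mouse averaged over the mice with at least 20 cells of the class, on a log colour scale. Csf3r is concentrated in neutrophils (2070 CPM, against 122 CPM in the next class), Flt3 in the 4 dendritic cell classes (146 to 247 CPM), and Csf1r is spread over the monocyte, macrophage and Kupffer cell rows (958 to 1392 CPM).

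Il34, the second CSF1R ligand, was rare, with 226 UMIs in all kept cells. It was highest in stellate cells (55.8 and 43.3 CPM in the 2 HFD+F+CCl4 mice, 49.6 ± 8.87) and next in cholangiocytes (12.2 ± 9.39, n = 7), and the SD ranges of these classes did not overlap. In cholangiocytes it was 16.0, 12.03 and 13.3 CPM in the HFD+F+CCl4 mice and 25.4 and 18.7 CPM in the 2 WD+F+CCl4 mice with enough cells. Both controls had 0 UMIs, which allows up to 9.69 CPM in replicate 1 and up to 66.3 CPM in replicate 2. Only the limit of replicate 1 lay below every model mouse, and the difference did not pass edgeR's quasi-likelihood test (adjusted p = 0.252 for HFD+F+CCl4 and 0.120 for WD+F+CCl4, Benjamini-Hochberg over all genes of the class). Every other class averaged under 0.4 CPM. Il34 UMIs were found in 25% of stellate cells and 12.9% of cholangiocytes (median depths 5611.5 and 6368 UMIs) and in 0 of the 4972 B cells.

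Flt3l was low everywhere. Averaged over all mice it was highest in T cells, while in the controls alone endothelial cells had the higher mean (64.9 against 51.8 CPM). T cells, a known source of FLT3L, had 60.8 and 42.9 CPM in the controls, 45.7, 54.0 and 32.5 CPM in the HFD+F+CCl4 mice and 48.4, 38.9 and 38.9 CPM in the WD+F+CCl4 mice (45.3 ± 9.08, n = 8). These groups overlapped. NK cells followed at 31.3 ± 16.4 CPM (n = 8), endothelial cells at 27.3 ± 27.7 CPM (n = 7) and B cells at 20.4 ± 11.5 CPM (n = 8), each within the SD range of its neighbour. A Flt3l UMI was present in 13.3% of T cells (median 2602 UMIs) and 0.981% of neutrophils (median 1360 UMIs), or in 4.94% and 0.546% after thinning. In endothelial cells the controls had 47.7 and 82.0 CPM, the HFD+F+CCl4 mice 10.8, 8.67 and 8.50 CPM and 2 WD+F+CCl4 mice 18.6 and 15.0 CPM. Both controls were thus above every model mouse, with WD+F+CCl4 replicate 1 left out for having 9 cells.

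**Figure D2:**
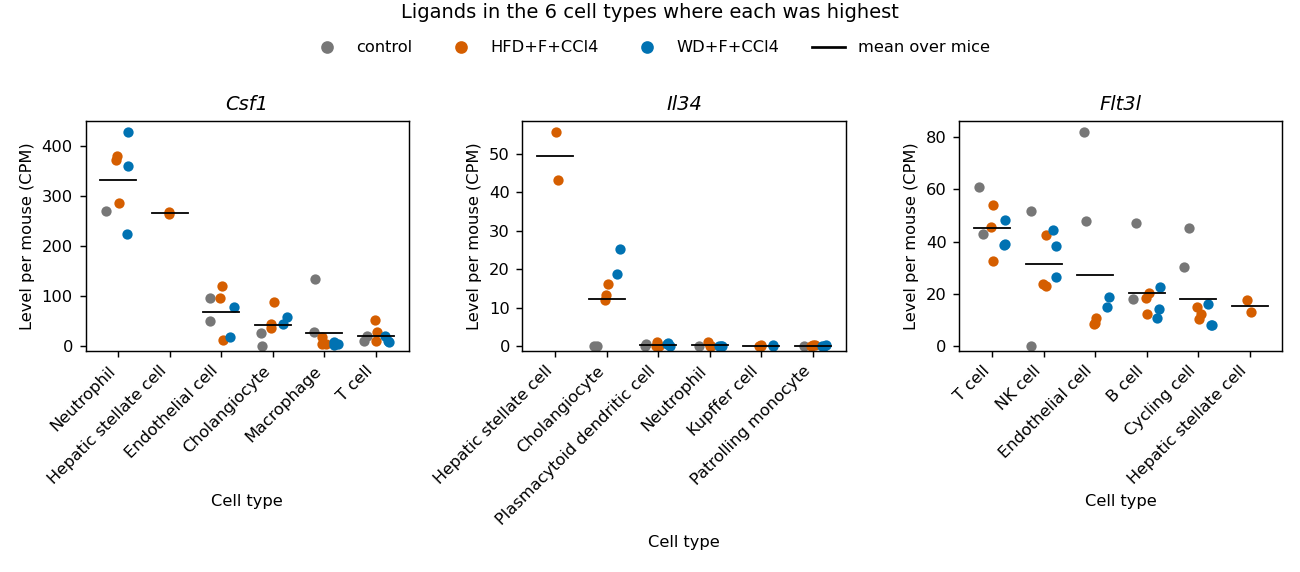
Level of the 3 ligand genes per mouse (points, CPM) in the classes where each was highest, coloured by group, with the mean over all mice of a class as a line. Neutrophil Csf1 in the control mouse (270 CPM) lies inside the range of the models (223 to 428 CPM), while endothelial Flt3l in the controls (47.7 and 82.0 CPM) lies above every model mouse.

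Csf1r lies at chr18:61100598-61132149 on the plus strand (GRCm38, GENCODE vM21). It was highest in patrolling monocytes (1392 ± 176 CPM, n = 7), the Ly6C-low monocytes of the vessel wall, and in Kupffer cells (1333 ± 166, n = 5). Classical monocytes (1022 ± 284, n = 8) and macrophages (958 ± 317, n = 8) followed, and each of these classes lay within the SD range of its neighbour. Type 2 dendritic cells had 593 ± 107 CPM (n = 7) and neutrophils 233 to 499 CPM in the models against 138 CPM in control replicate 1. Lymphocyte and parenchymal classes averaged below type 2 dendritic cells, though a red cell class had 622 ± 96.4 CPM (n = 4) beside 5568 to 10160 CPM of 34 summed phagocyte markers. A Csf1r UMI was present in 96.4% of classical monocytes (median 5694 UMIs) and in 6.15% of B cells (median 1747.5 UMIs). After thinning to 1000 UMIs the shares were 72.6% in patrolling monocytes, 65.7% in classical monocytes, 64.6% in Kupffer cells, 62.0% in macrophages and 2.96% in B cells.

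Flt3 marked the dendritic cells. Type 1 dendritic cells, which cross-present antigen, had 236 and 321 CPM in the controls, 276, 276 and 230 CPM in the HFD+F+CCl4 mice and 187, 164 and 288 CPM in the WD+F+CCl4 mice (247 ± 53.1, n = 8). Plasmacytoid dendritic cells had 167 ± 23.3 (n = 8), type 2 dendritic cells 167 ± 74.4 (n = 7) and mature dendritic cells 146 ± 43.7 CPM (n = 7). The SD range of type 1 dendritic cells lay just above that of plasmacytoid dendritic cells, though single mice of both overlapped, and the SD ranges of the other 3 classes overlapped in turn. The single control value of type 2 dendritic cells was 319 CPM and rested on 7 UMIs, beside 321 CPM in the higher control value of type 1 dendritic cells. Every other class averaged 22.6 CPM or less. Flt3 UMIs were present in 69.9% of type 1 dendritic cells (median 7666 UMIs) and 1.17% of B cells, or in 21.4% and 0.435% after thinning. Among macrophages, HFD+F+CCl4 replicate 1 had 29.5 CPM (609 UMIs) against 5.26 and 4.61 CPM in the other mice of its group. That library held most of the heat-shock macrophage cluster, in which Flt3 stood at 38.0 CPM over all mice. No macrophage marker was among the 10 leading genes of that cluster. Its score was 1.491 for macrophages and 0.888 for type 2 dendritic cells, the second type. HFD+F+CCl4 replicate 1 had 79 cells named type 2 dendritic cells, against 827 and 1127 in the other mice of its group. Whether the cluster holds dendritic cells was not tested.

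The GM-CSF receptor chains had a wider spread. Csf2ra was highest in neutrophils (330 ± 69.8 CPM, n = 7), then in patrolling monocytes (280 ± 28.7, n = 7), classical monocytes (277 ± 60.7, n = 8) and macrophages (222 ± 35.7, n = 8). Csf2rb was highest in mature dendritic cells (300 ± 61.1, n = 7), followed by patrolling monocytes (262 ± 39.1, n = 7), classical monocytes (252 ± 56.0, n = 8), macrophages (247 ± 167, n = 8), neutrophils (229 ± 44.4, n = 7) and plasmacytoid dendritic cells (220 ± 38.6, n = 8). Neighbours in both orders overlapped within their SD. The order of Csf2rb differed in the controls, where macrophages had 410 and 587 CPM and mature dendritic cells 348 CPM in the 1 mouse with enough cells. Plasmacytoid dendritic cells carried the shared chain with less of the GM-CSF-specific one: 50.9% had a Csf2rb UMI and 19.5% a Csf2ra UMI (median 3960 UMIs), or 18.5% and 5.30% after thinning. In B cells the shares were 3.34% and 4.20%.

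Csf3r had the widest gap among the receptor genes between the mean CPM of its highest class and the next. Neutrophils had 3447 CPM in control replicate 1, 2226, 1986 and 1262 CPM in the HFD+F+CCl4 mice and 2228, 1609 and 1731 CPM in the WD+F+CCl4 mice (2070 ± 699, n = 7). The control mouse was above all 6 model mice, but with 1 control mouse there was no test at this cell minimum. A minimum of 10 cells, chosen after seeing the data, admitted the 12 neutrophils of control replicate 2, which had 3452 CPM of Csf3r (64 UMIs). Neither model then passed (log2 fold change -0.67 ± 0.43 and -0.42 ± 0.44, adjusted p by edgeR 0.524 and 0.721), and neither did neutrophil Csf1 (0.50 ± 0.39 and 0.63 ± 0.39, adjusted p = 0.603 and 0.525). The next class, classical monocytes, had 122 ± 20.9 CPM (n = 8), and the SD ranges did not overlap. A Csf3r UMI was present in 88.9% of neutrophils and 1.47% of B cells, or in 80.3% and 0.808% after thinning. Detection was not confined to neutrophils: 45.45% of classical monocytes, 36.6% of macrophages and 33.7% of Kupffer cells had a Csf3r UMI. After thinning these shares were 11.35%, 8.33% and 8.92%. Averaged over mice, neutrophils supplied 37.3% of all Csf3r UMIs and macrophages 14.4%.

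The likeness of expression patterns was described by Pearson's r of log2(CPM + 1) over the 19 named classes, for 14103 genes. The 3 nearest genes of Csf1r were Tlr8 (r = 0.959), Sirpa and Cmklr1, those of Csf3r Clec4d (r = 0.947), C5ar1 and Adipor1, and those of Flt3 Mgl2 (r = 0.838), Mycl and Tnni2. Csf2ra was nearest to Rgs2 (r = 0.956), Pirb and Ogfrl1, and Csf2rb to Gpr35 (r = 0.967) and Cers6. Among the ligands, Csf1 was nearest to Thbs1 (r = 0.843), Vegfa and Pdlim7, Il34 to Scn7a (r = 0.996), C130075A20Rik and Col4a6, and Flt3l to 2810001G20Rik (r = 0.928), Gm44152 and Tasp1. The classes share libraries and depths, so these values are descriptions.

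To ask how the liver suspension as a whole differed between the groups, the counts of all kept cells of a mouse were summed. In such sums, fewer cells of a type and less RNA per cell cannot be told apart. Csf1r stood at 76.5 and 93.7 CPM in the controls, 791, 795 and 895 CPM in the HFD+F+CCl4 mice and 721, 942 and 863 CPM in the WD+F+CCl4 mice. The groups did not overlap, and Csf1r was 3.42 ± 0.24 higher in HFD+F+CCl4 and 3.51 ± 0.24 higher in WD+F+CCl4 (log2 fold change ± SE). Its adjusted p was 0.000780 and 0.000592 by edgeR's quasi-likelihood test with Benjamini-Hochberg adjustment, the test used for every comparison here. Csf2ra was 49.5 and 91.8 CPM in the controls and 158 to 217 CPM in the 6 model mice, again without overlap (1.64 ± 0.27, edgeR adjusted p = 0.00706, and 1.65 ± 0.27, adjusted p = 0.00598). Csf2rb was 50.8 and 67.9 CPM in the controls and 144 to 235 CPM in the models (1.73 ± 0.32, edgeR adjusted p = 0.0107, and 1.74 ± 0.32, adjusted p = 0.00885). Without control replicate 2 its adjusted p was 0.0573 and 0.0492, and without control replicate 1 it was 0.0717 and 0.0663.

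Flt3l fell over all kept cells. It was 39.6 and 50.5 CPM in the controls and 8.67 to 10.7 CPM in the 6 model mice, by -2.12 ± 0.18 in HFD+F+CCl4 and -1.96 ± 0.18 in WD+F+CCl4 (log2 fold change ± SE, adjusted p by edgeR 0.00101 in both). The other 4 genes did not pass the test in either model. Csf3r was 57.2 and 84.3 CPM in the controls, 125, 118 and 114 CPM in the HFD+F+CCl4 mice and 271, 115 and 76.6 CPM in the WD+F+CCl4 mice. Csf1 was 14.0 and 19.2 CPM in the controls and 14.1 to 42.9 CPM in the models, and Flt3 31.5 and 76.0 CPM against 17.3 to 43.7 CPM. The log2 fold change of Flt3 in HFD+F+CCl4, -0.38, turned to 0.26 when control replicate 2 was left out. Il34 was at 0 to 2.18 CPM in all mice. The background was high: 18.9% of 19787 genes passed in HFD+F+CCl4 (9.63% higher, 9.22% lower) and 21.4% in WD+F+CCl4 (11% higher, 10.3% lower), against 4 of the 8 genes (3 higher, 1 lower) in each model.

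The makeup of the suspensions differed beside these values. The shares below count named cells only, and many control cells were unnamed. Macrophages, Kupffer cells and both monocyte classes were 4.61% and 5.01% of the kept cells of the controls and 44.5% to 64.9% in the models. T and NK cells were 38% and 4.20% in the controls and 5.06% to 13.7% in the models. The Flt3l level of control replicate 2 (50.5 CPM) thus stood beside few cells named T or NK. Of its Flt3l UMIs, 51.9% came from its large unnamed cluster, in which a share of 0.395 of the cells had a Trbc2 UMI. Which cells of that cluster supplied them was not tested. Neutrophils were 1.91% and 0.288% in the controls and 4.26% to 15.1% in the models. The part of cell numbers in the results over all kept cells was not tested.

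**Figure D3:**
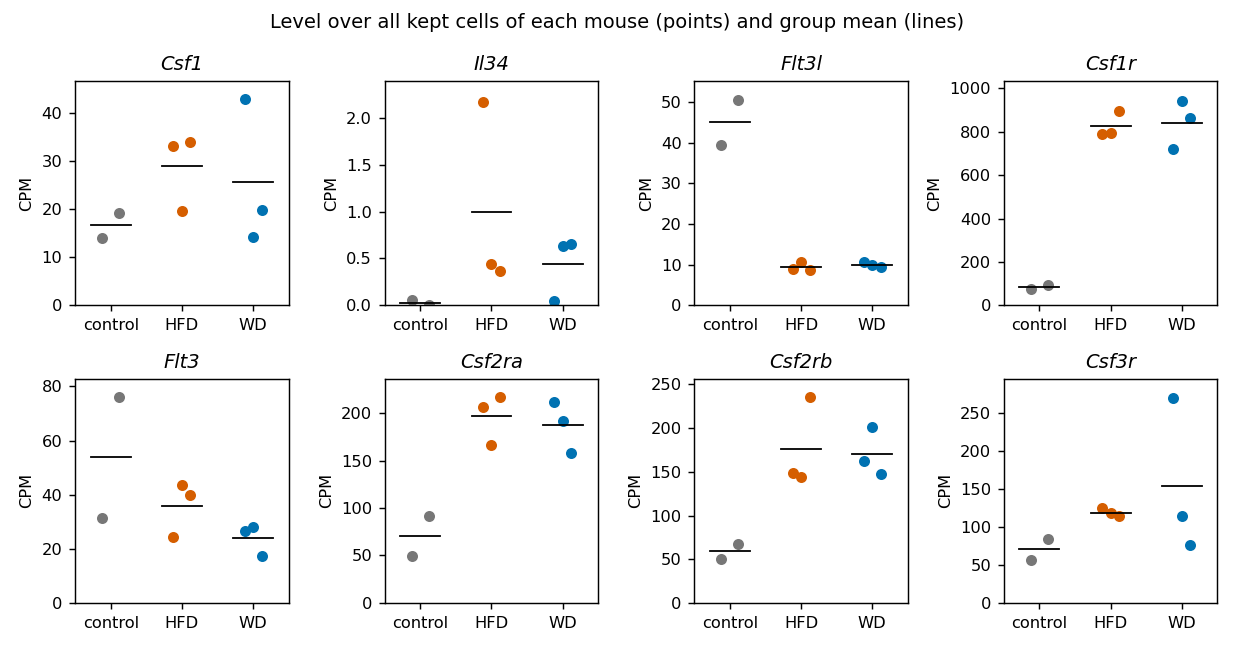
Level of each of the 8 genes over all kept cells of a mouse (points, CPM, linear axes from 0), by group, with the group mean as a line. Csf1r in the models (721 to 942 CPM) lies far above the controls (76.5 and 93.7 CPM), Flt3l (8.67 to 10.7 CPM) lies below them (39.6 and 50.5 CPM), and Csf1, Csf3r and Flt3 overlap between groups.

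Within classes, 10 classes had enough cells in both controls, and 65 of the 80 pairs of a gene and a class passed the count filter. A pair that is high in 1 group alone can pass through that group, so the counts below are descriptions of the tested pairs. In HFD+F+CCl4, 15 of the 65 pairs passed the edgeR test (12 higher, 3 lower), where 4.17% of all 102663 pairs of genes and classes did (2.47% higher, 1.7% lower). In WD+F+CCl4, 16 passed (13 higher, 3 lower), against 6.12% of all pairs (3.45% higher, 2.67% lower). Csf1r made up 7 of the 12 higher pairs in HFD+F+CCl4 and 8 of the 13 in WD+F+CCl4. Cycling cells, whose makeup differed between the groups, are among the classes with calls. In that class alone, 11.3% of all genes passed in HFD+F+CCl4 and 15.2% in WD+F+CCl4. The calls rested on both controls: without control replicate 1 there were 1 and 2 calls, and without control replicate 2 there were 10 and 10. Leaving out HFD+F+CCl4 replicate 1 gave 13 and 17. The 2 models share the 2 control mice, so the second comparison is not independent of the first.

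In classical monocytes, the Ly6C-high cells that enter injured liver, Csf1r was higher and Flt3 lower in the models. Csf1r was 661 and 566 CPM in the controls, 993, 1154 and 1295 CPM in the HFD+F+CCl4 mice and 984, 1356 and 1170 CPM in the WD+F+CCl4 mice, with no overlap. The log2 fold change was 0.94 ± 0.24 (edgeR adjusted p = 0.0429) and 0.97 ± 0.24 (adjusted p = 0.0258). Leaving out control replicate 2 gave an adjusted p of 0.183 and 0.125, and leaving out control replicate 1 gave 0.0976 and 0.0667. Flt3 was 29.8 and 78.8 CPM (52 and 16 UMIs) in the controls, 13.2, 11.97 and 11.1 CPM in the HFD+F+CCl4 mice and 7.34, 7.53 and 8.72 CPM in the WD+F+CCl4 mice. Its log2 fold change was -1.78 ± 0.30 in HFD+F+CCl4 (edgeR adjusted p = 0.00999) and -2.38 ± 0.29 in WD+F+CCl4 (adjusted p = 0.000985), and it passed without either control (adjusted p between 0.00311 and 0.0388).

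The classical monocytes of controls and models were not in the same clusters. Cluster 30 held 355 of 393 and 145 of 178 control cells, and most model cells were in cluster 2. Inside cluster 2, Csf1r was 669 and 506 CPM in the controls and 984 to 1356 CPM in the models, in the same order as in the whole class. Flt3 in that cluster rested on 3 UMIs in each control (16.7 and 76.0 CPM) against 7.34 to 13.2 CPM in the models. The 34 summed phagocyte markers of the class were 12440 and 13640 CPM in the controls and 12480 to 16820 CPM in the models, and Lyz2 was 28430 and 29360 against 13470 to 18390 CPM.

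Macrophages showed the same direction for Csf1r and the opposite one for Csf2rb. Csf1r was 562 and 400 CPM in the controls, 969, 1158 and 1275 CPM in the HFD+F+CCl4 mice and 954, 1177 and 1170 CPM in the WD+F+CCl4 mice. It was higher by 1.38 ± 0.33 in HFD+F+CCl4, which did not pass (edgeR adjusted p = 0.0581), and by 1.32 ± 0.33 in WD+F+CCl4, which did (adjusted p = 0.0495). Csf2rb was 410 and 587 CPM in the controls, 159, 140 and 258 CPM in the HFD+F+CCl4 mice and 127, 159 and 134 CPM in the WD+F+CCl4 mice. Its log2 fold change was -1.08 ± 0.33 in HFD+F+CCl4 (edgeR adjusted p = 0.124) and -1.51 ± 0.33 in WD+F+CCl4 (adjusted p = 0.0305). Neither WD+F+CCl4 call held without 1 of the controls (adjusted p = 0.110 and 0.118 for Csf1r, 0.0846 and 0.354 for Csf2rb). The controls had 65 and 23 macrophages, of which 52 and 20 lay in cluster 16, led by Cxcl9 and Cxcl10, while most model macrophages lay in clusters 0 and 8. Within cluster 16, Csf1r was 497 and 267 CPM in the controls and 939 to 1253 CPM in the models, and Csf2rb 452 and 701 CPM against 271 to 348 CPM.

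Csf1r was also higher in classes that are not its main source. In T cells it was 17.9 and 38.1 CPM in the controls, 143, 141 and 222 CPM in the HFD+F+CCl4 mice and 78.8, 131 and 105 CPM in the WD+F+CCl4 mice (log2 fold change 3.03 and 2.49, edgeR adjusted p = 0.00207 and 0.00574). The T cells of the groups lay in different clusters: clusters 7 and 28 held 3437 of 3627 and 90 of 154 control T cells, and 3 to 32 T cells of a model mouse. In cluster 9, the 1 T cell cluster with at least 20 cells of every mouse, Csf1r was 19.4 and 21.6 CPM in the controls (5 and 1 UMIs) and 62.9 to 155 CPM in the models. In NK cells it was 21.3 and 43.3 CPM in the controls and 180 to 498 CPM in the models, where the value of control replicate 2 rested on 1 UMI (log2 fold change 3.61 and 3.92). In plasmacytoid dendritic cells it was 31.9 and 52.3 CPM against 164 to 434 CPM (2.27 and 3.01), and in endothelial cells 50.1 and 49.2 CPM against 208 to 608 CPM (2.52 and 2.95). B cells had 8.45 and 39.8 CPM against 20.3 to 132 CPM, with overlap in HFD+F+CCl4 replicate 3, where the value was 1 UMI (2.95 and 2.71). B cells were also split, since cluster 12 held 2218 of 2257 and 124 of 151 control cells and 0 to 23 cells of a model mouse. In cluster 11, which held most model B cells, the controls had 0 Csf1r UMIs in 39 and 27 cells, which allows up to 34.3 and 103.7 CPM, against 20.3 to 129 CPM in the models. Each of these 5 classes passed the test in both models. Without control replicate 2 the call was lost in endothelial cells (edgeR adjusted p = 0.260 and 0.207). Without control replicate 1 it was lost everywhere but in the plasmacytoid dendritic cells of WD+F+CCl4 (adjusted p = 0.0169).

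Markers of phagocytes were also higher in the models than in both controls in these classes, except in B cells, where the groups overlapped. In T cells the 34 summed phagocyte markers were 1826 and 2247 CPM in the controls, 2760 to 4144 CPM in HFD+F+CCl4 and 2552 to 2948 CPM in WD+F+CCl4. In NK cells they were 1644 and 2002 CPM against 3298 to 5383 CPM, in plasmacytoid dendritic cells 6251 and 6522 against 7494 to 10810 CPM, in endothelial cells 2983 and 3331 against 3575 to 5851 CPM, and in B cells 1380 and 2066 against 1488 to 3557 CPM. In T cells, Csf1r per 100 marker UMIs was 0.982 and 1.70 in the controls and 2.88 to 8.03 in the models, and none of the 34 markers was at 0 in the HFD+F+CCl4 mice. In type 1 dendritic cells, Csf1r was 78.3 and 83.1 CPM against 94.7 to 151 CPM and did not pass. The part of phagocyte RNA in the Csf1r results of these classes was not tested.

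**Figure D4:**
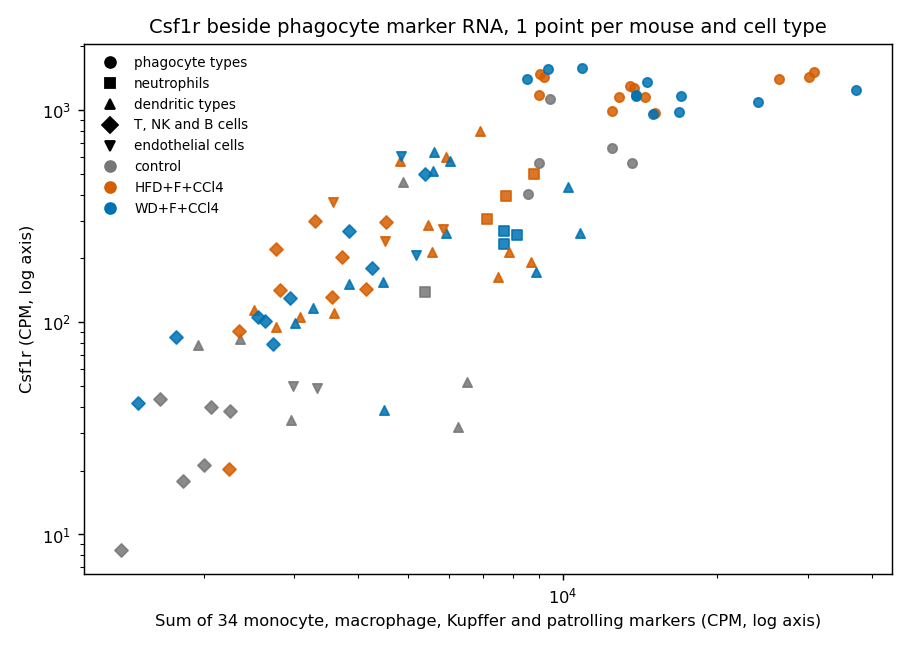
Csf1r (vertical axis, CPM, log scale) against the sum of 34 phagocyte markers (horizontal axis, CPM, log scale), 1 point per mouse and class, coloured by group and shaped by kind of cell. In T cells, NK cells, plasmacytoid dendritic cells and endothelial cells the model mice lie higher on both axes than the controls, for example T cells with 78.8 to 222 CPM of Csf1r in the models against 17.9 and 38.1 CPM.

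The other calls lay in NK cells, cycling cells and endothelial cells. In NK cells Csf2ra was 10.7 and 0 CPM in the controls and 45.8 to 97.8 CPM in the models, and Csf2rb 9.13 and 0 CPM against 21.5 to 119 CPM. Both passed in both models, and the zeros of control replicate 2 rested on 21 cells. The control levels of both genes lay below the cutoff of the count filter. These pairs entered the test only through the model mice, so their calls are descriptions. Among cycling cells, those of the controls all lay in a T cell cluster, and those of the models also in a macrophage cluster with 820 to 975 CPM of Csf1r. Csf1r was 11.4 and 20.1 CPM in the controls and 318 to 746 CPM in the models, and Csf2ra, Csf2rb and Csf3r passed as higher and Flt3l as lower in both models. Within the T cell cluster alone, Csf1r was 11.4 and 20.1 CPM in the controls and 69.7 to 190 CPM in the models. Levels of Csf2ra, Csf2rb, Csf3r and Flt3l within that cluster are not given. For these genes, differences between and within clusters of cycling cells cannot be told apart. Endothelial Flt3l was lower in HFD+F+CCl4, with a log2 fold change of -2.58 ± 0.42 (edgeR adjusted p = 0.0316). In WD+F+CCl4 its log2 fold change was -1.89 ± 0.47, with an adjusted p of 0.0984, and without either control the HFD+F+CCl4 call was lost (adjusted p = 0.162 and 0.189).

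Several genes did not pass in the class that carried them. Flt3 in type 1 dendritic cells differed by -0.10 ± 0.23 and -0.35 ± 0.23 on the log2 scale (adjusted p by edgeR 0.896 and 0.489), with overlapping groups. Flt3 in plasmacytoid dendritic cells, at 155 and 166 CPM in the controls and 135 to 204 CPM in the models, also overlapped. Flt3l in T cells had log2 fold changes of -0.37 ± 0.27 and -0.26 ± 0.27. No call was made for Csf1 in any of its 8 tested classes, whose adjusted p was 0.163 or more in both models. Kupffer cells, patrolling monocytes, neutrophils, type 2 and mature dendritic cells, stellate cells, hepatocytes, red cells and plasma cells had too few control cells for a test at 20 cells per mouse.

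**Figure D5:**
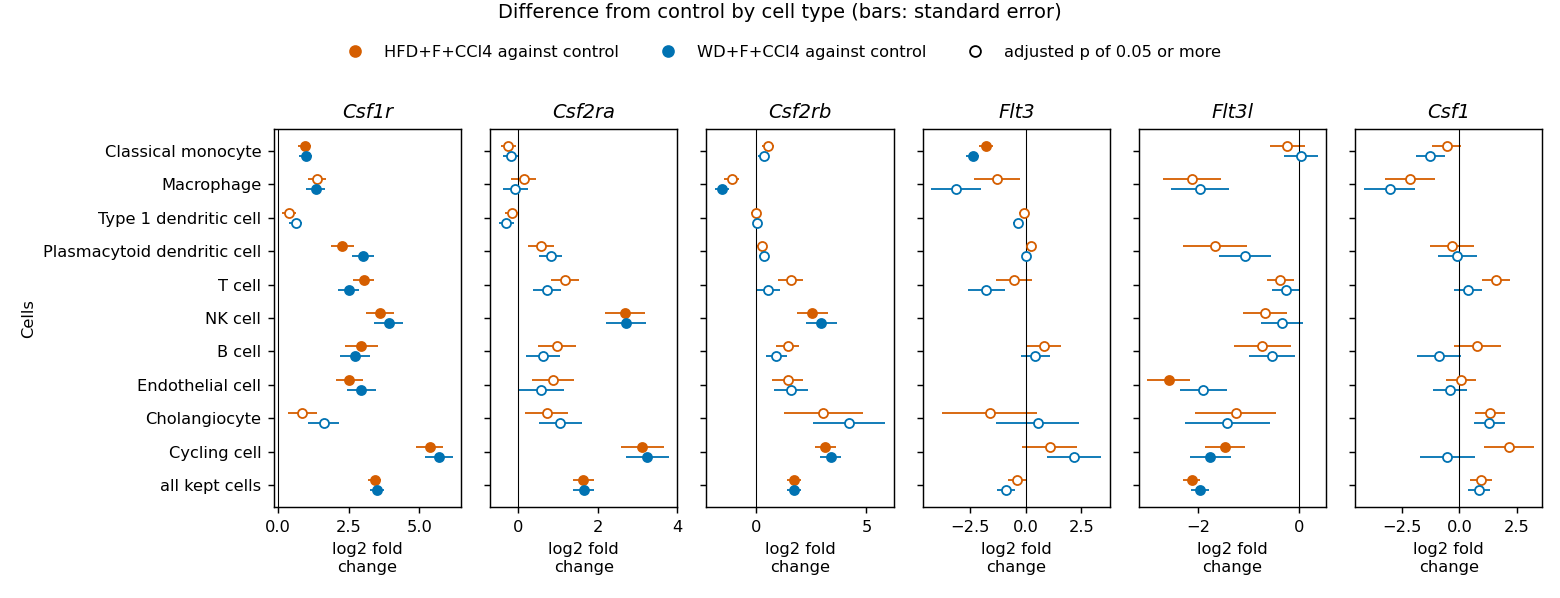
Log2 fold change of Csf1r, Csf2ra, Csf2rb, Flt3, Flt3l and Csf1 within each tested class and over all kept cells, for HFD+F+CCl4 and WD+F+CCl4 against control, with bars of 1 SE and filled points for an edgeR adjusted p under 0.05. Csf1r lies above 0 in each of the 10 tested classes in both models (0.38 to 5.69). Its highest value is in cycling cells, whose makeup differed between the groups. Flt3 in classical monocytes lies below 0 (-1.78 and -2.38).

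The 2 models were also compared with each other. None of the 65 pairs passed the edgeR test, where 0.0312% of all pairs did, and 6 of them had an unadjusted p under 0.05, as did 5.15% of all pairs. DESeq2 also made 0 calls. With no count filter beyond 1 count there were 4 calls over 75 pairs, all lower in WD+F+CCl4, and without WD+F+CCl4 replicate 3 there were 2, both higher. The share of all pairs that passed under those settings is not given here. Over all kept cells none of the 8 genes passed, as did 0% of all genes, with 0 of the 8 at an unadjusted p under 0.05 (3.88% of all genes) and 0 by DESeq2. Adding the 7 classes with enough cells in the models but not in the controls gave 0 calls over 105 pairs. Of these pairs, 8 had an unadjusted p under 0.05 by edgeR. The added classes included red cells but not stellate cells, of which the WD+F+CCl4 mice had 3, 4 and 15. Stellate Csf1 and Il34 were thus not compared between the models.

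The genes that act with the receptors were taken from fixed lists. Of 14 myeloid lineage transcription factors, 9 passed over all kept cells in each model (6 higher, 3 lower), where 18.9% and 21.4% of all genes did, with a median log2 fold change of 1.11 and 1.03. Cebpb, a factor of monocytes and granulocytes, had log2 fold changes of 3.29 and 3.19. Within classical monocytes, 4 of 13 tested passed in HFD+F+CCl4 (3 higher, 1 lower) and 5 in WD+F+CCl4 (3 higher, 2 lower), where 5.55% and 9.84% of all genes did. There Cebpb had 1.68 and 1.47, while Irf4, a dendritic cell factor that was lower beside Flt3, had -1.91 and -2.40. In macrophages, 4 of 14 passed in each model (2 higher, 2 lower), against 2.48% and 4.84% of all genes. Maf (1.99 and 2.14) was higher and Irf4 (-3.26 and -4.09) lower. In both classes most control cells lay in other clusters than most model cells, and levels within a single cluster are not given for these factors.

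Of 24 signalling genes downstream of the receptors, 9 passed over all kept cells in HFD+F+CCl4 (6 higher, 3 lower) and 11 in WD+F+CCl4 (7 higher, 4 lower), where 18.9% and 21.4% of all genes did. Their median log2 fold change was 0.20 in both models. The adaptor gene Gab2 had log2 fold changes of 2.94 and 2.82. In classical monocytes 2 passed in HFD+F+CCl4 (Cblb and Gab2) and 3 in WD+F+CCl4 (Gab3, Gab2 and the phosphatase gene Ptpn6), all higher, which is near the 5.55% and 9.84% of all genes. In macrophages 3 and 5 of the 24 passed, all lower, against 2.48% and 4.84% of all genes. They included the feedback inhibitor genes Cish (-5.72 and -5.92) and Socs1 (-4.22 and -3.99) and the kinase gene Jak2 (-1.90 and -2.50). Csf2rb, lower beside them, passed in WD+F+CCl4 only. Of the 65 and 23 control macrophages, 52 and 20 lay in cluster 16, while most model macrophages lay in clusters 0 and 8. Levels of these genes within a single cluster are not given, so differences between and within clusters cannot be told apart.

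Of 13 further ligands and receptors of these families, 9 were tested over all kept cells, and 4 passed in HFD+F+CCl4 (2 higher, 2 lower) and 3 in WD+F+CCl4 (2 higher, 1 lower), against the same 18.9% and 21.4% of all genes. Csf2, which encodes GM-CSF, was lower in both models (-2.84 ± 0.68 and -3.85 ± 0.70, adjusted p by edgeR 0.0259 and 0.00900). Csf2rb2, the close copy of Csf2rb, had 1.11 ± 0.24 and 1.046 ± 0.24, and Il5ra, the IL-5 receptor chain, had -4.09 ± 0.96 in HFD+F+CCl4. In classical monocytes 1 of 5 tested passed in HFD+F+CCl4 (Csf2rb2, 1.13 ± 0.30) and 0 in WD+F+CCl4, against 5.55% and 9.84% of all genes. In macrophages edgeR called 0 of 5 in either model, against 2.48% and 4.84%. Where edgeR made 0 calls, DESeq2 also made 0. The unadjusted edgeR p was under 0.05 for 2 of the 5 in classical monocytes of WD+F+CCl4, against 3051 of all 11969 genes. In macrophages it was under 0.05 for 1 of the 5 in each model. Of all 13656 genes of that class, 2298 had such a p in HFD+F+CCl4 and 2752 in WD+F+CCl4.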

How the data were processed

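The livers of 8 mice (2 controls, 3 per model) were profiled with the 10x Genomics 3′ kit (V3), 1 library per mouse. The authors deposited 1 table of UMI counts for all mice, made with bcl2fastq 2.20 and Cell Ranger, per the labels and methods, on the GRCm38 (mm10) genome. The sources used here state neither the annotation release nor whether introns were counted, and the GENCODE release used for positions was not taken from the study. Counts were used as deposited, with no correction for free RNA. Groups follow the labels. Nothing in the labels names a batch, and the 8 libraries ranged from 6135827 to 64855024 UMIs, so values of control replicate 2 carry the largest counting error. Intervals and limits at a count of 0 (3 counts) cover counting error only.

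The authors' stated filter was applied to barcodes: over 500 genes and a mitochondrial share of UMIs below 25%. Cells were scaled to 10000 UMIs, log-transformed and clustered with scanpy 1.11.5 and leidenalg 0.10.2 (2000 variable genes without the 8 genes, 30 principal components, 20 neighbours, resolution 1.0), which gave 41 clusters. A cluster took a name with at least 3 markers of that type detected, and the names are rebuilt here rather than those of the authors. Doublets were ranked with Scrublet (6824 cells, 8.48%) and kept in the results given, and their removal was tried as an alternative.

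Counts were summed per mouse and class of at least 20 cells and tested in edgeR 4.0.16 (R 4.3.3) over all 3 groups, with TMM factors, a minimum count of 10 and the quasi-likelihood test, adjusted over all genes of a class (Benjamini-Hochberg, threshold 0.05). The SE is the log2 fold change divided by the root of F. DESeq2 1.42.0, other normalizations, filters, cell limits, a lower resolution of 0.7, a replicate term and leaving out each mouse were alternatives. On simulated counts for HFD+F+CCl4 against control with 200 changed genes, edgeR recovered 62.5% in classical monocytes (11969 genes), 81.5% in type 1 dendritic cells (7582 genes) and 81% over all kept cells (19787 genes). The size of the planted change and the dispersion were fixed and not estimated from these mice. These shares therefore do not measure the power for the genes described here. P-values measure the spread between these mice.

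The 8 genes, the gene lists and the tests were chosen with earlier results of these data known. Named genes outside the 8 are, per list and comparison, up to 3 with the largest log2 fold change among those passing, and the 3 genes most alike per gene, except that some genes the rule selects are not reported here. Promoter sequences are from RefSeq (GRCm38.p6).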

Additional observations from a re-analysis of the deposited data

Results flagged for a closer look

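Csf2rb moved in opposite directions between classes in WD+F+CCl4 against control. Its log2 fold change was -1.51 in macrophages (410 and 587 CPM in the controls against 127 to 159 CPM in the models of that group), where every WD+F+CCl4 mouse was below both controls, and 2.96 in NK cells and 3.39 in cycling cells, where every WD+F+CCl4 mouse was above both controls. The difference between these classes was not tested, and the controls held 23 and 65 macrophages. The control cycling cells all lay in a T cell cluster, while those of the models also lay in a macrophage cluster that held 0 control cells, so the classes compared differ in makeup. The NK value of control replicate 2 was 0 in 21 cells, and Csf2rb in NK cells entered the test only through the model mice. The phagocyte markers of NK cells were also higher in the models, and their part in the Csf2rb value was not tested.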

How the results depend on the processing

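Against control, 15 pairs of a gene and a class passed in HFD+F+CCl4 and 16 in WD+F+CCl4. No count filter beyond 1 count gave 25 and 26 calls, and 4 between the models, over 75 pairs. More than 1000 genes per cell gave 6 and 7 over the 35 pairs of 6 classes that remained, removal of doublets 9 in HFD+F+CCl4 over 56 pairs, and 50 cells per mouse 10 in WD+F+CCl4 over 37 pairs. DESeq2 gave 16 and 18, and a minimum of 10 cells, chosen after seeing the data, 17 and 18. Leaving out 1 mouse gave 1 to 14 calls in HFD+F+CCl4, 2 to 17 in WD+F+CCl4 and 0 to 2 between the models. The lowest counts, 1 and 2, came without control replicate 1. Without control replicate 2 there were 10 and 10, without HFD+F+CCl4 replicate 2 there were 9 in HFD+F+CCl4, without WD+F+CCl4 replicate 2 there were 10 in WD+F+CCl4, and the 2 calls between the models came without WD+F+CCl4 replicate 3. Over all kept cells the 4 calls of each model stayed within 3 to 5 under every alternative. The shares of all pairs and genes given above hold for the main settings only, so the counts under the alternatives stand without a background.

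The log2 fold change of Flt3 over all kept cells in HFD+F+CCl4, which did not pass, turned from -0.38 to 0.26 without control replicate 2 (edgeR adjusted p = 0.781) and ranged from -0.79 to 0.26 over the 8 mice left out in turn. Of the log2 fold changes recomputed for single genes, 742 kept their direction and side of the threshold, 117 kept the direction and lost the call, 5 gained it and 1 turned. The cause of these changes was not tested, apart from fewer pairs or mice entering a fit.

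Same-numbered mice did not deviate together (correlations of -0.613 to 0.053), so replicate numbers do not pair the mice. Between mice of different numbers the correlations were -0.294 to 0.632, highest for HFD+F+CCl4 replicate 1 with WD+F+CCl4 replicate 3. These mice held 2862 and 889 of the 3879 cells of the heat-shock patrolling monocyte cluster. They also held 1306 and 1361 of the 3354 cells of an endothelial cluster. The cause of this likeness was not tested. A replicate block gave 10 and 12 calls within classes and 3 and 4 over all kept cells. Depth limits Il34 and the control values of macrophages, NK cells and endothelial cells, which rest on few UMIs.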

Other observations

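Unnamed clusters also held the 8 genes. A cluster of 424 cells led by Elane, Prtn3 and Mpo, granule genes of early neutrophil-lineage cells, with Mcpt8 and Cpa3, genes of basophils and mast cells, also among its top 10, had 198 CPM of Csf1r over all mice. Its 20 cells in control replicate 1 had 673 CPM of Csf1, 740 CPM of Csf2rb and no Csf1r. A cycling cluster of 941 cells that scored nearest to type 1 dendritic cells had 121 to 214 CPM of Flt3 per mouse. Among T cells, a cluster of 2610 cells with Cd8a and Pdcd1 had 49.0 CPM of Csf1, and a cluster of 806 cells with Foxp3 had 294 CPM of Csf1r. In the Foxp3 cluster, control replicate 1 had 0 Csf1r UMIs in 92 cells, which allows up to 10.6 CPM. The model mice had 111 to 445 CPM there, and the part of phagocyte RNA in this value was not tested. These are values over clusters chosen after seeing the data, and none was tested.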
